A study of Drosophila melanogaster with 16 samples.

Results

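Control ovaries of Drosophila melanogaster differed widely in how much steady-state RNA they held for a given amount of nascent transposon RNA, and the same families stood at the top and at the bottom in both control lines. In these ovaries the eye colour gene white, the study's control target, was knocked down with tj-GAL4, which drives expression in ovarian somatic cells, or with nos-GAL4, which drives it in germ cells, so that Piwi itself was left in place. Flies were kept at 25 degrees and ovaries came from animals aged 3 to 5 days. Steady-state sense RNA was read from RNA-seq of total RNA and nascent sense RNA from GRO-seq, which labels and sequences RNA that engaged polymerases extend in isolated nuclei, here of about 100 ovaries. The 4 columns used were RNA-seq and GRO-seq of the tj and of the nos white knockdown, out of 16 samples that also cover piwi knockdowns and H3K9me3 ChIP-seq. Each combination of assay, driver and knockdown has 1 column, so no value has a replicate error and no test was run between groups. The series states 2 replicates of RNA-seq, but its table holds 1 column per condition and strand.

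The measure was the log2 ratio of steady-state RPM + 1 to nascent RPM + 1 on the sense strand, where RPM is the read count scaled by the authors to library size. It was taken for each transposon listed in both tables whose mean over the tj and nos white columns was at least 1 RPM in each assay. Of 122 elements in the series, 119 were listed in both tables and 107 passed. The other 3, Bari2, invader5 and Stalker3T, were in the nascent table alone. The 12 elements left out had a mean over both lines of under 1 RPM of steady-state RNA. Just inside the limit lay Fw3 with a mean of 1.06 RPM of steady-state RNA, and just outside it lay gypsy5 with 0.989 RPM and transib1 with 0.898 RPM. Class lists put 56 of the 107 elements among LTR retrotransposons, 32 among LINE-like retrotransposons and 17 among DNA transposons, and 2 (INE-1 and Porto1) were in no list.

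A transposon's steady-state RNA is set by how fast it is transcribed and by how fast the transcript is processed, exported and degraded. Piwi, loaded with piRNAs, recognises nascent transposon transcripts in the nucleus and represses their transcription, while cytoplasmic partners of the piRNA pathway cut transposon transcripts. LTR retrotransposons, LINE-like elements and DNA transposons differ in how their transcripts begin, end and are used. A ratio of RNA-seq to GRO-seq within a family does not depend on element length, but it is not a half-life. Each assay was scaled to its own library, so only the position of a family among the others can be read. Relatives with near-identical copies, such as the TART subfamilies, may share reads.

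The median ratio was -1.92 with tj and -2.17 with nos, so the median element had 3.77 times and 4.50 times more nascent than steady-state RPM. Ratios ran from -6.20 to 6.76 with tj and from -7.32 to 6.74 with nos, with SDs over elements of 2.06 and 2.12. Steady-state RNA exceeded nascent RNA for 12 of 107 elements with tj (11.2%) and 11 with nos (10.3%), and for 10 in both (9.35%). An element is called high or low here when its ratio lay at least 2-fold above or below the median element of the same driver. With tj 23 elements were high (21.5%) and 26 low (24.3%), and with nos 28 were high (26.2%) and 28 low (26.2%). In both lines 19 were high (17.8%), 21 were low (19.6%), and 0 were high in one line and low in the other (0%). Without centring on the median element, 7 elements were at least 2-fold above equal RPM in both lines and 74 at least 2-fold below.

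Steady-state and nascent levels were only loosely related across elements. Their Pearson r on the log2 scale was 0.48 and Spearman rho 0.56 with tj, and 0.39 and 0.53 with nos, over 107 elements that share libraries and are not independent replicates. The 10 elements with the highest mean ratio held 94.2% of the steady-state sense RNA of all 107 with tj and 82.8% with nos, but 8.80% and 6.19% of the nascent sense RNA. The 10 with the lowest held 0.603% and 1.39% of the steady-state RNA, but 50.7% and 49.9% of the nascent RNA. These shares describe elements picked by the ratio itself. The tj share leaned on copia, which alone held 71.2% of the steady-state RNA of all 107 with tj and 3.80% with nos. The other 9 highest held 22.9% with tj and 79.0% with nos of the same totals. copia is still counted in these totals, so the 2 figures do not compare the lines without it.

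**Figure D1:**
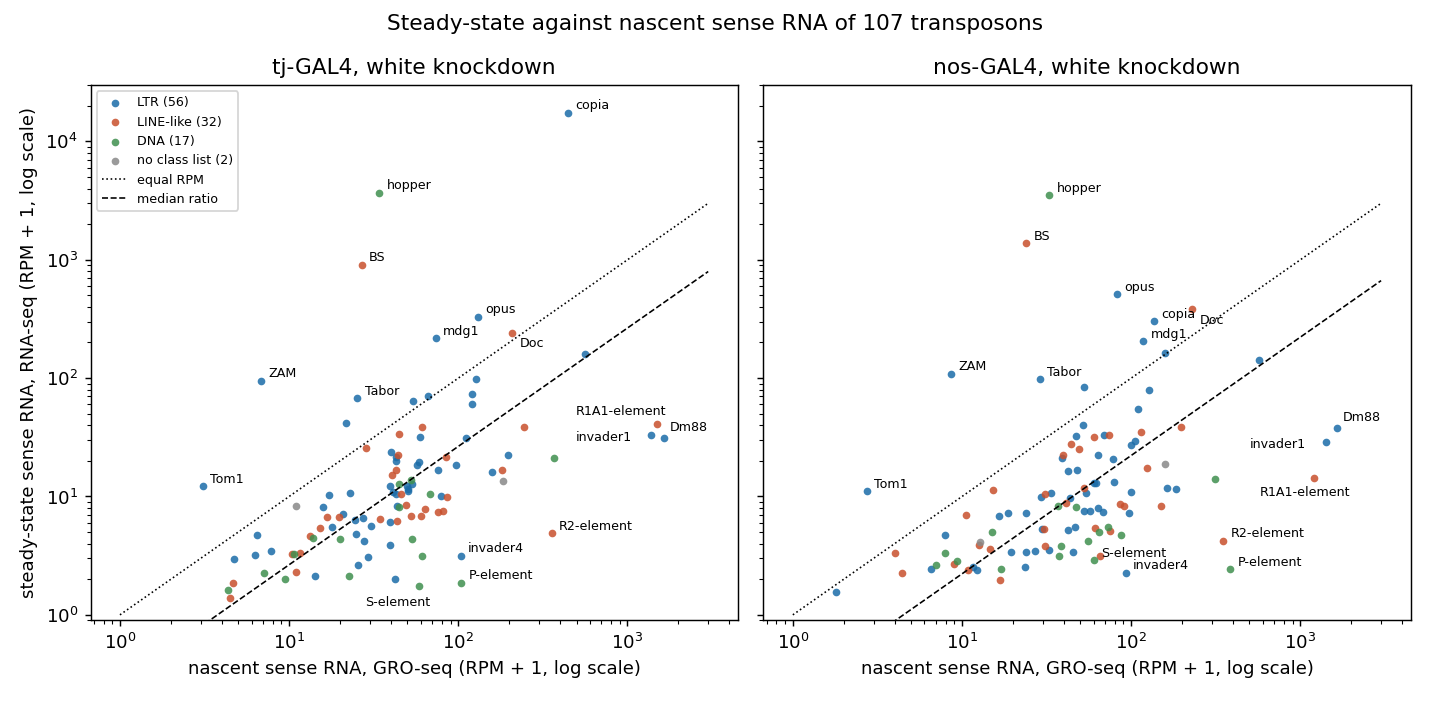
Nascent sense RNA (x axis, GRO-seq RPM + 1, log scale) against steady-state sense RNA (y axis, RNA-seq RPM + 1, log scale) of 107 transposons in the tj and nos white knockdowns, 1 point per element and coloured by class, with a dotted line at equal RPM and a dashed line at the median ratio. hopper, BS and ZAM lie far above both lines in both panels, copia does so with tj, and Dm88, invader1, R1A1-element, R2-element and P-element lie far to the lower right.

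The element with the most steady-state RNA per nascent RNA was hopper, a DNA transposon. Its steady-state level was 3694 RPM with tj and 3507 RPM with nos, and its nascent level 33.1 and 31.8 RPM. Both lines thus gave nearly the same ratio, 6.76 and 6.74, or 108-fold and 107-fold. The LINE-like element BS came next by the mean of both lines. BS had 901 RPM and 1373 RPM of steady-state RNA against 25.9 and 23.1 RPM of nascent RNA, with ratios of 5.07 and 5.84. Together with ZAM and copia these were the 4 highest elements by that mean.

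ZAM, an LTR element related to gypsy that is known for its activity in ovarian follicle cells, was weakly transcribed in both controls. Its nascent level was 5.82 RPM with tj and 7.63 RPM with nos, among the lower ones, while its steady-state level was 94.5 and 108 RPM. The ratios were 3.81 and 3.66. Tom1 also combined a low nascent level, 2.08 and 1.75 RPM, with 11.2 and 10.1 RPM of steady-state RNA, at ratios of 1.99 and 2.01. For ZAM and Tom1 both lines gave close values in both assays. The position of Tom1 depended on the pseudocount, and with 5 RPM in place of 1 it lay 2.72 and 2.90 above the median element on the log2 scale, against 3.90 and 4.18.

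The other LTR elements of the 10 highest were opus, Tabor, mdg1 and gypsy. For opus steady-state RNA was 328 RPM with tj and 511 RPM with nos, nascent RNA 129 and 81.5 RPM, and the ratios 1.33 and 2.63. Tabor stood at ratios of 1.42 and 1.76 and mdg1 at 1.56 and 0.80. The gypsy element, which encodes an envelope-like protein, had ratios of 0.25 and 0.67, and Doc, a jockey-type LINE element, had 0.21 and 0.73. Doc was well transcribed, with 208 and 228 RPM of nascent RNA beside 240.4 and 379 RPM of steady-state RNA. The 10 highest elements were 7 LTR, 2 LINE-like and 1 DNA element.

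At the other end stood elements with abundant nascent RNA. R2-element, a LINE element that inserts into the 28S ribosomal RNA genes, had 357 RPM of nascent RNA with tj and 350.1 RPM with nos, against 3.88 and 3.21 RPM of steady-state RNA. Its ratios were -6.20 and -6.38. R1A1-element, which also inserts into these genes, had 1498 and 1205 RPM of nascent RNA against 40.1 and 13.5 RPM of steady-state RNA, with ratios of -5.19 and -6.38. On the RPM + 1 scale of the ratio, the 2 elements thus had at least 36.47 times more nascent than steady-state RNA in each line.

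Dm88, an LTR element of the copia group, had the highest nascent level of all, 1647 RPM with tj and 1644 RPM with nos, yet 30.1 and 36.9 RPM of steady-state RNA. Its ratios were -5.73 and -5.44. The LTR element invader1 was close to it, with 1380 and 1414 RPM of nascent RNA against 31.9 and 27.8 RPM, and ratios of -5.39 and -5.62. Dm88, invader1 and R1A1-element took 14.5%, 12.2% and 13.2% of the nascent sense RNA of all 107 elements with tj. Another LTR element of this end, invader4, stood at ratios of -5.04 and -5.35. It had 102 and 91.7 RPM of nascent RNA against 2.14 and 1.27 RPM of steady-state RNA. With a pseudocount of 5 RPM it lay at -2.39 and -2.21 relative to the median element, against -3.12 and -3.18 with 1 RPM.

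P-element, the DNA transposon of hybrid dysgenesis, had the lowest mean ratio with a pseudocount of 1 RPM. Its nascent level was 103 RPM with tj and 385 RPM with nos, its steady-state level 0.875 and 1.42 RPM, and its ratios -5.80 and -7.32. At such levels the pseudocount sets much of the ratio, and with 5 RPM P-element lay at -2.68 and -4.19 relative to the median element and 4 elements had a lower mean. Input DNA of P-element in the ChIP-seq of the same lines was 5.50 RPM with tj and 14.6 RPM with nos, beside a median of 441 and 474 RPM over the 107 elements. The part that DNA content plays in its ratio was not tested. Other DNA transposons at the low end were S-element (ratios -5.06 and -4.37), 1360 (-4.12 and -4.48) and FB (-4.30 and -4.21). Steady-state RNA was 0.753 and 1.90 RPM for S-element and 2.12 and 3.71 RPM for FB. With a pseudocount of 5 RPM S-element lay at -1.93 and -1.48 relative to the median element, against -3.15 and -2.20 with 1 RPM. FB then had 10 elements below it. Cr1a, a LINE-like element, closed the 10 lowest at -3.44 and -4.17.

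**Figure D2:**
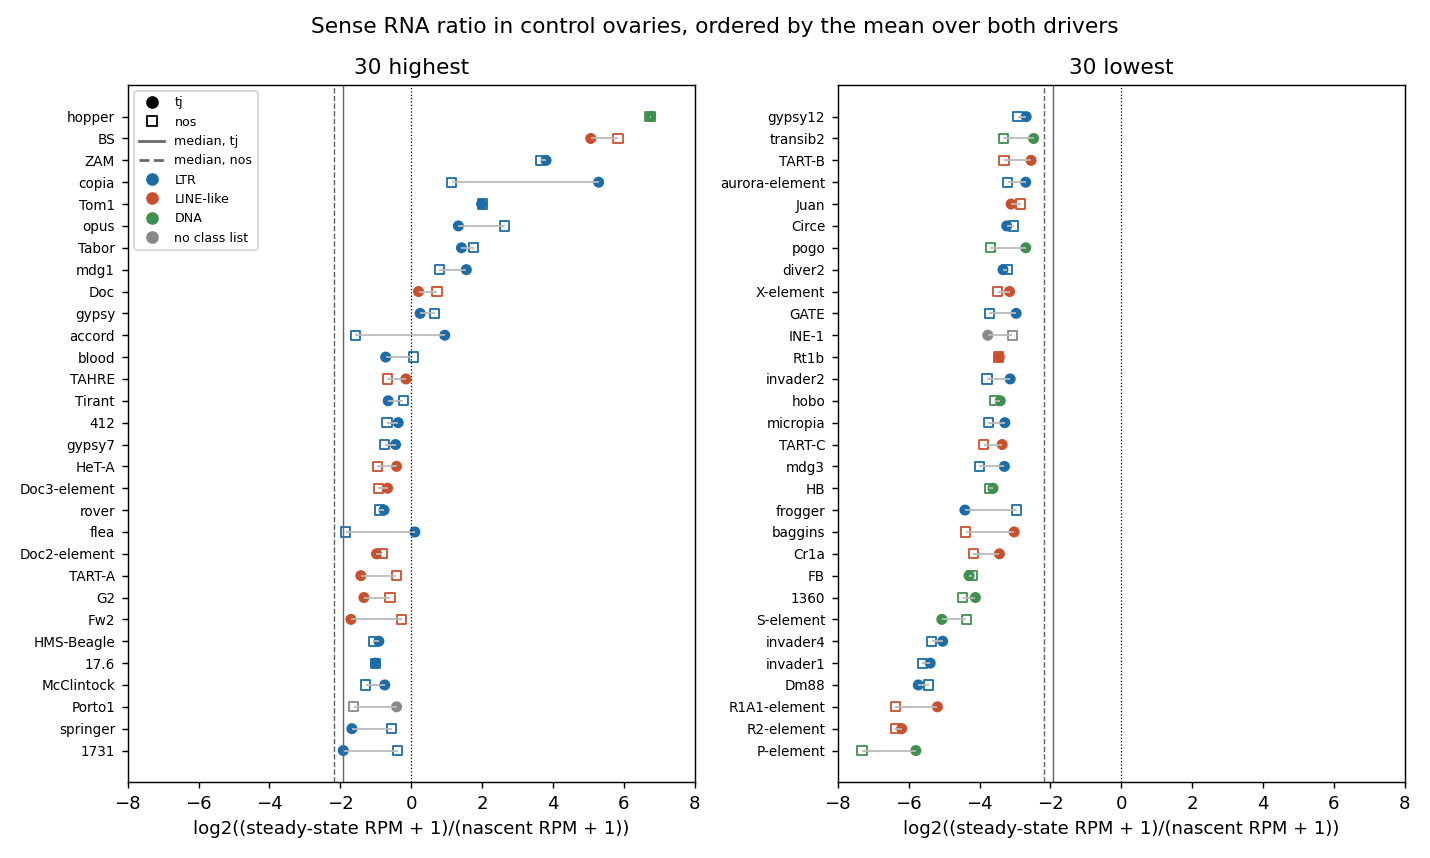
Log2 ratio of steady-state to nascent sense RNA (x axis) for the 30 elements with the highest and the 30 with the lowest mean over both drivers, tj as filled circles and nos as open squares, coloured by class, with vertical lines at the medians of -1.92 (tj, solid) and -2.17 (nos, dashed) and at equal RPM (dotted). The 10 highest elements lie right of equal RPM in both lines, and copia is the one whose symbols lie farthest apart.

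Both lines ordered the elements alike. Pearson r between the tj and the nos ratio was 0.92 and Spearman rho 0.87 over 107 elements, with no library in common. Over the 87 elements left without the 10 highest and 10 lowest, r was 0.73 and rho 0.77. Of the 10 highest elements by tj, 9 were among the 10 highest by nos, and of the 10 lowest by tj, 9 were among the 10 lowest by nos. On the same side of the median element in both lines were 92 of 107. Relative to the median element, the tj and nos ratios were apart by a median of 0.44 on the log2 scale. That figure contains the driver, the stock and the library together, and it is the only repeat of the ratio that these data hold.

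The ratio differed between the lines by at least 2-fold, relative to the median element, for 17 elements, 7 toward tj (6.54%) and 10 toward nos (9.35%). By far the widest difference was that of copia, an LTR element that is abundantly transcribed in flies. Its steady-state level was 17433 RPM with tj and 301 RPM with nos, its nascent level 444 and 136 RPM, and its ratios 5.29 and 1.14. Both assays were higher with tj, by log2 differences of 5.85 in steady-state and 1.70 in nascent RNA, and the gap in the ratio relative to the median element was 3.90. In ovaries, fewer cells of a type and less RNA per cell cannot be told apart.

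The LTR elements accord and flea also held more RNA per nascent RNA with tj. For accord steady-state RNA was 40.8 RPM with tj and 8.88 RPM with nos beside 20.7 and 28.4 RPM of nascent RNA, a difference of 2.27. For flea the levels were 70.2 and 28.4 RPM of steady-state RNA and 65.1 and 104.8 RPM of nascent RNA, a difference of 1.70. In both elements steady-state RNA was higher with tj and nascent RNA higher with nos. The difference of NOF, a DNA element found within FB elements, was 2.05, and it came with nascent RNA of 3.35 RPM with tj and 72.2 RPM with nos and with input DNA of 29.4 and 168 RPM. The part that DNA content plays in this difference was not tested. G-element and P-element completed the 6 widest toward tj, at 1.32 and 1.27. G-element had 3.67 RPM of steady-state RNA with tj and 0.984 RPM with nos. It thus passed the level filter through the tj line alone, which favours a difference toward tj.

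Toward nos the widest differences were those of 1731 (-1.80) and frogger (-1.72), which belong to the copia group, and of Fw2 (-1.69), opus (-1.56), G5A (-1.49) and springer (-1.38). The element 1731 had 9.84 RPM of steady-state RNA with tj and 39.3 RPM with nos, against 39.9 and 51.2 RPM of nascent RNA. springer, an LTR element of the gypsy type, had 11.3 and 31.4 RPM of steady-state RNA against 38.3 and 46.4 RPM. Fw2 and frogger had at most 2.47 RPM of steady-state RNA in either line and under 1 RPM with tj, so that they passed the level filter through the nos line alone, which favours a difference toward nos. With a pseudocount of 5 RPM the difference of Fw2 was -0.74, under 2-fold.

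**Figure D3:**
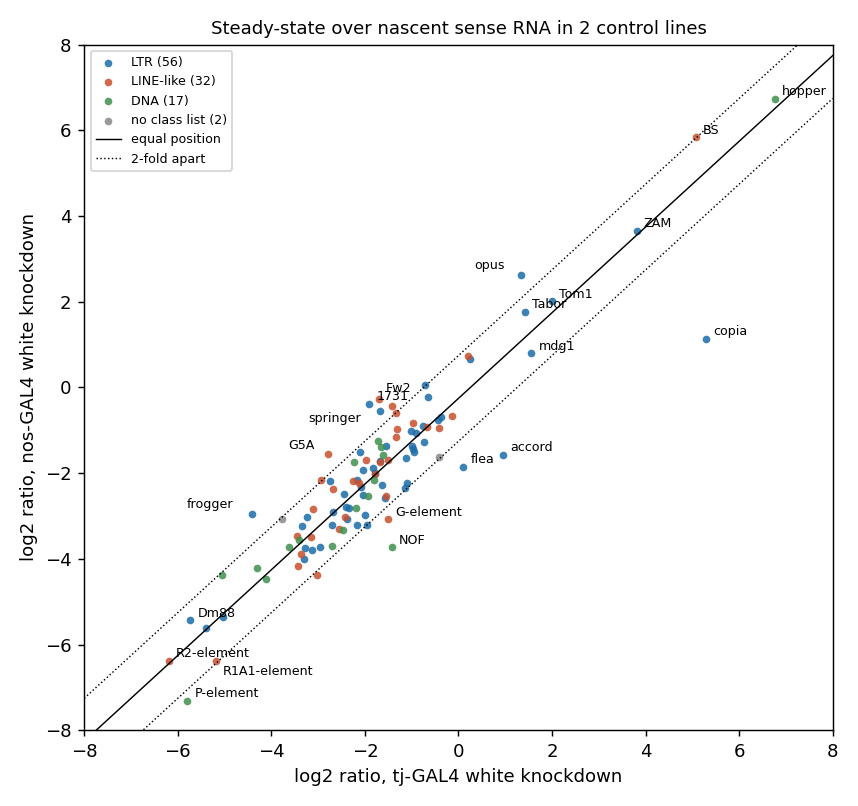
Log2 ratio of steady-state to nascent sense RNA in the tj (x axis) against the nos (y axis) white knockdown, 1 point per element and coloured by class, with a solid line at equal position relative to the median element and dotted lines 2-fold apart from it. Most of the 107 points lie between the dotted lines, copia lies far to the right with ratios of 5.29 and 1.14, and hopper and ZAM lie near the solid line at the upper right.

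By class, DNA transposons had the lowest median ratio in both lines. Their median ratio was -2.23 with tj and -3.33 with nos, against -1.73 and -1.96 for LTR and -1.87 and -2.09 for LINE-like elements. The summed RNA of the class did not show this. DNA transposons held 15.4% of the steady-state sense RNA with tj and 45.0% with nos, against 8.45% and 11.2% of the nascent. Most of that steady-state RNA was of hopper, at 15.1% and 44.2%. The hopper level itself was 3694 RPM with tj and 3507 RPM with nos. The totals behind these shares were unlike, since copia held 71.2% of the steady-state sense RNA with tj and 3.80% with nos. In both lines 6 of 17 DNA elements were low (35.3%, beside 19.6% of all elements) and 1, hopper, was high. Of the low ones, 1360 had 20.1 RPM of steady-state RNA with tj and 13.1 RPM with nos. The others, hobo, HB, FB, S-element and P-element, had at most 3.71 RPM in either line, where the pseudocount weighs on the ratio. LTR elements were high in both lines in 13 of 56 cases (23.2%, beside 17.8% of all) and low in 8. LINE-like elements were high in 5 of 32 cases and low in 7. Of the 17 DNA elements only 2, hopper and 1360, had a mean of 10 RPM or more in both assays, so the class cannot be described at higher levels.

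The errantivirus list, gypsy-like LTR elements that carry or descend from carriers of an envelope gene, lay toward the high end. Of 14 members, 6 were high in both lines and 0 low, beside 17.8% and 19.6% of all elements, and the medians of -1.05 and -1.03 lay 1.82-fold and 2.20-fold above the median element. The high members were ZAM, opus, gypsy, Tirant, rover and HMS-Beagle. The list was drawn up from general knowledge, but with earlier results of these data known. The placement of opus and HMS-Beagle in it, both high members, is uncertain. Tirant was at -0.65 and -0.22, with 1.99 and 0.551 RPM of steady-state RNA against 3.69 and 0.81 RPM of nascent RNA. It thus passed the level filter through the tj line alone, and the pseudocount sets much of its nos ratio. rover was at -0.76 and -0.90 and HMS-Beagle at -0.91 and -1.06. The element 17.6 had 59.0 and 53.4 RPM of steady-state RNA against 119 and 108 RPM of nascent RNA, and 297 had ratios of -1.09 and -2.22. Idefix was at -1.12 and -1.64, gtwin at -1.15 and -2.35, Quasimodo at -1.58 and -2.59 and gypsy6 at -1.68 and -1.71. gypsy10 had the lowest ratios of the list, -2.38 and -3.07.

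The telomeric retrotransposons, which are copied onto chromosome ends, spread over the whole middle of the range. HeT-A had 32.7 RPM of steady-state RNA with tj and 24.3 RPM with nos against 43.8 and 48.0 RPM of nascent RNA, and its ratios of -0.41 and -0.95 were high in both lines. TAHRE was high as well, at -0.15 and -0.67. TART-C had 6.37 and 4.07 RPM against 74.7 and 73.8 RPM, and its ratios of -3.36 and -3.88 were low in both lines. TART-A was at -1.42 and -0.42 and TART-B at -2.54 and -3.31. The 3 TART subfamilies thus lay on both sides of the median element, although they are close relatives whose reads may be shared. With both strands summed, HeT-A stood at -0.30 and -0.41 relative to the median element and TART-C at 2.18 and 2.15.

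Of the R1 and R2 type elements, 3 of 5 were low in both lines and 0 high, beside 19.6% and 17.8% of all elements, with medians of -3.44 and -3.46. Besides R2-element and R1A1-element these included Rt1b, at -3.44 and -3.46. Rt1a was at -2.95 and -2.16 and Rt1c at -1.68 and -1.74. With both strands summed the list's median lay 0.13 above the median element in each line. The 4 elements of the copia group went in different directions. copia was high in both lines, Dm88 was low in both, frogger was low with tj at -4.41 and at -2.95 with nos, and 1731 was at the median element with tj and high with nos. One group of LTR elements therefore held both one of the highest and one of the lowest ratios with tj.

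The antisense strand of the same libraries was not used to choose the elements. In 102 elements the antisense RNA averaged 1 RPM or more in both assays, and their antisense ratio had a median of -2.88 with tj and -2.92 with nos. It exceeded 0 for 16 elements with tj (15.7%), 15 with nos (14.7%) and 15 in both (14.7%). Over the 98 elements measured on both strands, sense and antisense ratios were related by a Pearson r of 0.49 (Spearman rho 0.31) with tj and 0.53 (rho 0.42) with nos, in strands that share a library. Among the 10 elements with the highest sense ratios, ZAM, BS, mdg1, Tabor and opus had antisense ratios above 0 in both lines.

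Those 5 elements held far more antisense than sense RNA at steady state. mdg1 had 26618 RPM of antisense RNA with tj and 21485 RPM with nos at steady state, against 268 and 138 RPM of nascent antisense RNA. BS had 12739 and 11471 RPM against 202 and 160 RPM, and ZAM 6337 and 5287 RPM against 12.4 and 10.2 RPM. The antisense ratio of ZAM, 8.89 and 8.88, was the highest of all. Steady-state RNA of mdg1 was 99.2% antisense with tj. copia had 1858 RPM of antisense steady-state RNA with tj but 34.8 RPM with nos, so that its antisense ratio was 5.98 in one line and -1.25 in the other. Antisense RNA made up 9.63% of its steady-state RNA with tj and 10.4% with nos, so the 2 strands are not separate readings of this difference.

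hopper showed the opposite, with RNA of one strand alone far above the nascent level. Its antisense RNA was 12.9 RPM with tj and 19.1 RPM with nos at steady state and 20.1 and 22.6 RPM in nascent RNA, at antisense ratios of -0.60 and -0.23. The strands of R2-element stood far apart, with 90.6 and 63.4 RPM of antisense steady-state RNA against 7.41 and 8.11 RPM of nascent antisense RNA. Its antisense ratio was 3.45 and 2.82 beside sense ratios of -6.20 and -6.38, and with both strands summed it stood at 0.60 and 0.17 relative to the median element. G2, a jockey-type LINE element, had antisense ratios of 6.52 and 6.12 beside sense ratios of -1.33 and -0.60. G2 was named here after its values were seen. A total of 9 elements, R2-element and G2 among them, had antisense ratios above 0 and sense ratios below 0 in both lines. The others were Rt1a, 17.6, HMS-Beagle, HMS-Beagle2, gypsy6, gypsy7 and TART-C. HMS-Beagle2 and gypsy7 were also named after their values were seen. Of the telomeric elements, TART-C had antisense ratios of 0.09 and 0.22, while HeT-A, at -4.65 and -4.85, was far below 0.

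**Figure D4:**
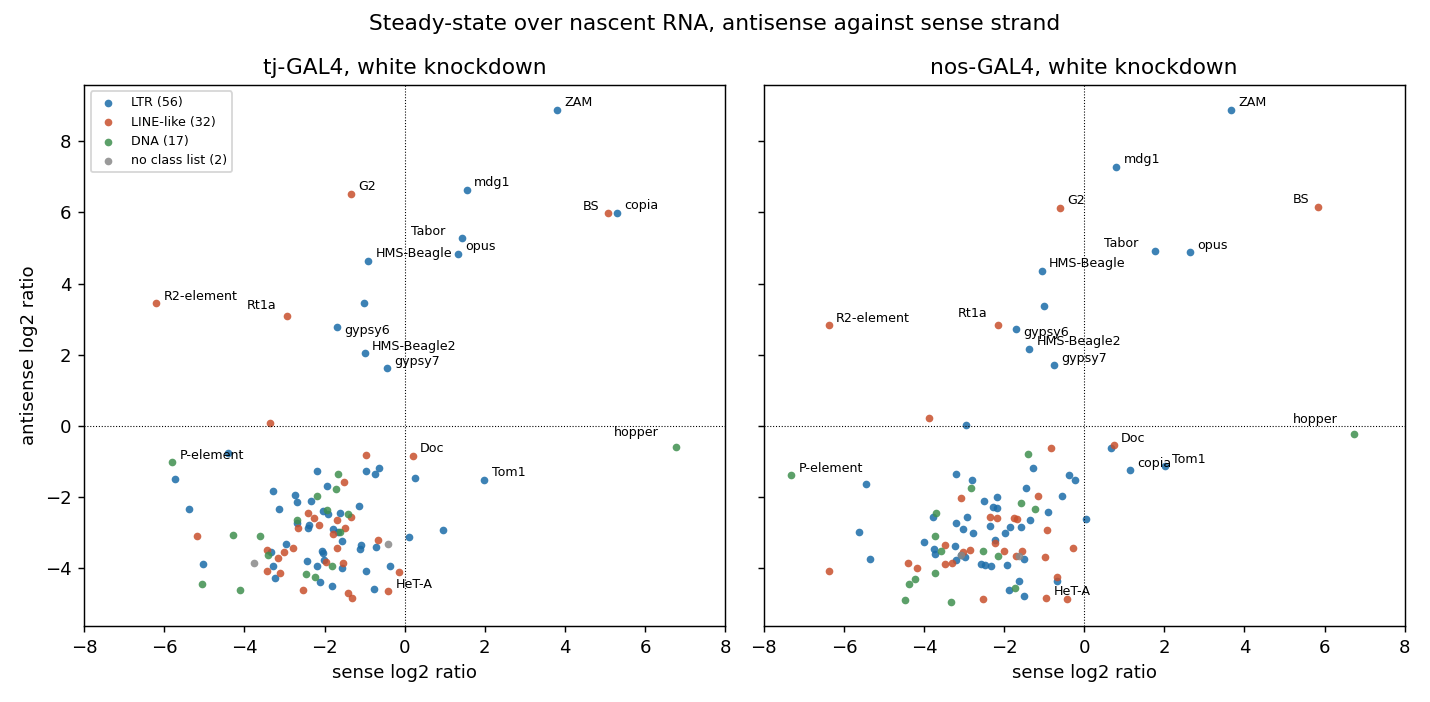
Sense (x axis) against antisense (y axis) log2 ratio of steady-state to nascent RNA for the 107 elements in the tj and nos white knockdowns, coloured by class, with dotted lines at equal RPM. ZAM, BS, mdg1, opus and Tabor lie in the upper right of both panels, hopper lies far right near an antisense ratio of 0, and R2-element lies in the upper left.

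H3K9me3, a mark of silent chromatin, and DNA content of the same control lines were set beside the ratio. Across the 107 elements the ratio had a Pearson r with log2 H3K9me3 over input of -0.12 with tj and -0.07 with nos, and with log2 input of 0.06 and -0.02. Both ends of the order held elements with high and with low values. hopper had an H3K9me3 over input ratio of 1.01 with tj and 0.942 with nos, and copia 1.08 and 0.874, beside medians of 3.31 and 2.96 over all elements. gypsy, also among the 10 highest, had 5.85 and 5.15. Among the 10 lowest, R1A1-element had 15.2 and 12.5 and FB 0.629 and 0.392.

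The same ratio in the piwi knockdowns, whose libraries were not used above, kept much of this order with tj and less with nos. Pearson r between white and piwi knockdown was 0.89 and Spearman rho 0.88 with tj, and 0.77 and 0.69 with nos. Of the 10 highest control elements, 8 were among the 10 highest of the tj piwi knockdown and 5 among those of the nos piwi knockdown. Of the 10 lowest, 9 and 8 stayed among the 10 lowest. The ratio was at least 2-fold higher in piwi than in white knockdown for 21 elements with tj (19.6%) and 42 with nos (39.3%), and at least 2-fold lower for 6 (5.61%) and 3 (2.8%). These counts are not centred, and the median element was higher in piwi knockdown by 0.28 with tj and 0.74 with nos.

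Of the 10 highest control elements, hopper, Tom1, opus and Tabor stayed within 2-fold of their control ratios in both lines. Of the 10 lowest, S-element and P-element did so. With piwi knocked down, hopper had ratios of 6.04 with tj and 6.63 with nos, BS 5.19 and 6.98, and P-element -5.76 and -7.28. BS was thus 1.14 above its control with nos, and Dm88 was at -6.17 and -3.94. The telomeric elements had far higher ratios in the piwi than in the white knockdown with nos. HeT-A was at 5.08 in the nos piwi knockdown against -0.95 in the control, TART-C at 2.56 against -3.88 and TAHRE at 4.79 against -0.67. In the tj piwi knockdown the same 3 were at 0.17, -3.28 and 0.45.

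The LTR element invader4 was at -0.68 in the nos piwi knockdown against -5.35 in the control. With tj the widest difference upward was that of gypsy6, at 1.44 in piwi against -1.68 in white knockdown. The widest downward was that of mdg1, at -1.53 against 1.56, with steady-state RNA of 217 RPM in white and 451 RPM in piwi knockdown beside nascent RNA of 73.0 and 1306 RPM. ZAM was at 2.55 against 3.81 with tj. copia differed in opposite directions, at 3.30 against 5.29 with tj and at 3.13 against 1.14 with nos, so that its piwi knockdown ratios were close in both lines.

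**Figure D5:**
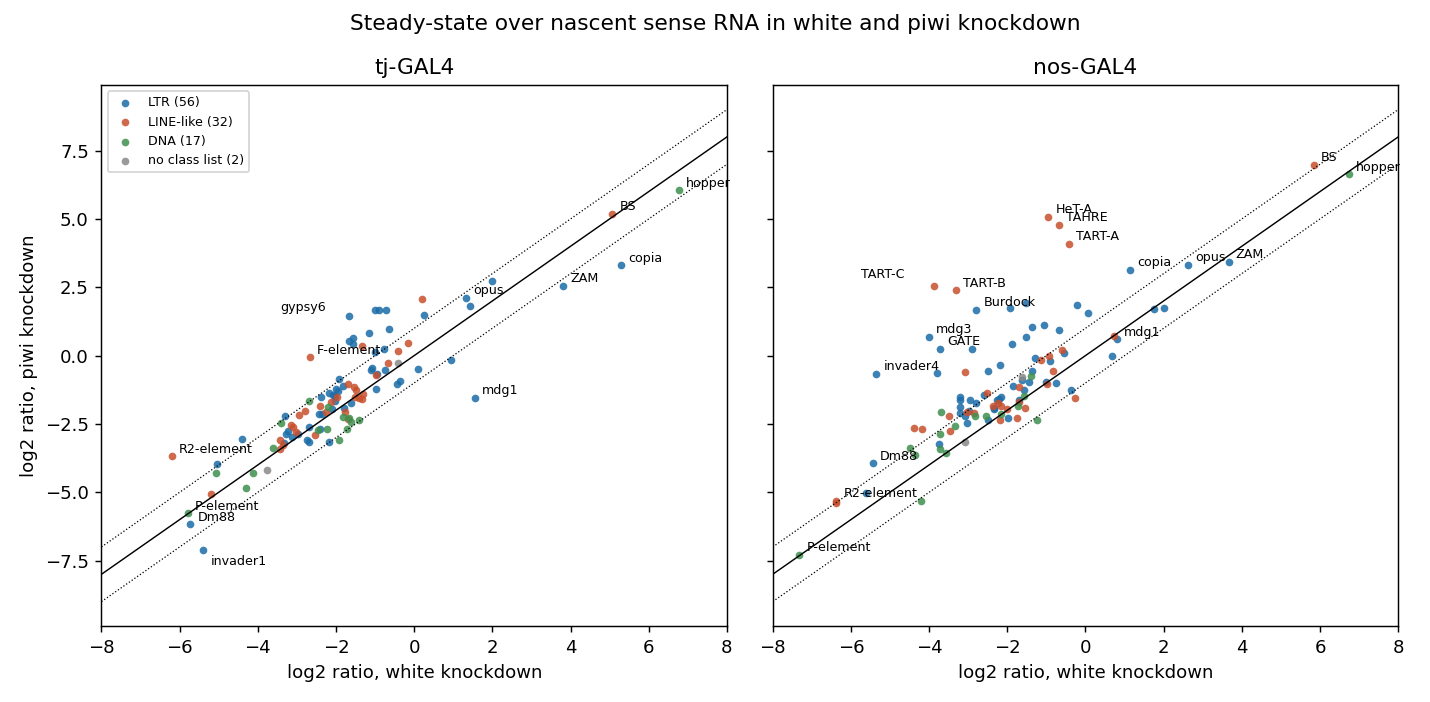
Log2 ratio of steady-state to nascent sense RNA in white knockdown (x axis) against piwi knockdown (y axis) for the 107 elements, by driver and coloured by class, with a solid line at equal ratios and dotted lines 2-fold apart from it. hopper and P-element lie between the dotted lines in both panels, and the 5 telomeric elements lie far above it with nos.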

How the data were processed

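For each transposon the deposited values are sense and antisense RPM, library-scaled read counts, from RNA-seq and from GRO-seq. The deposited ChIP-seq table gives RPM of input and H3K9me3 and the authors' ratio of them, which equals the quotient of its RPM columns. That quotient was computed anew here. The submitters' processing notes name the build dm3 and the tools Bowtie2 2.0.0, TopHat2 2.0.5 (in RNA-seq alone), DESeq 1.10.1 (outside ChIP-seq) and SICER 1.1 (in ChIP-seq alone). What each tool did, and which reads set the scale, are not given in the sources used here. RNA-seq libraries were made from 150 ng of total RNA with a NuGen kit, per the labels' protocols. Host genes are outside these tables, so neither the tissue nor the white knockdown was checked.

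Steady-state values under 1 RPM in the tj white column could be written as sums of 2 freely chosen step sizes within 1e-09 RPM in 25 of 25 cases, and in the nos white column in 25 of 29. With steps chosen to fit, this was not taken as a recovery of reads, and the depth is unknown. Nascent values under 100 RPM were whole multiples of the best fitting step in 66.8% (tj) and 59.8% (nos) of cases within 0.0051 RPM, against 29.4% at a typical step in each, so their reads were not recovered either.

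Elements were matched by name after trimming blanks. The pseudocount was 1 RPM, the filter a mean of 1 RPM in each assay and the size for counting 2-fold. No model was fitted, since each group has 1 column. Named elements were the 10 highest and 10 lowest by mean position, the 6 widest differences between drivers each way and the members of the telomeric, R1 and R2, copia and errantivirus lists. The members and lists were chosen with earlier results of these data known. Another 6 deposited columns, named for no sample, were left out. The calculation was tested on simulated reads. Python 3.11.15, numpy 2.4.6, pandas 2.3.3 and matplotlib 3.10.9 were used.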

Additional observations from a re-analysis of the deposited data

Results flagged for a closer look

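For 4 elements the ratio, relative to the median element, lay on opposite sides in the 2 control lines and at least 2-fold apart. The tj minus nos difference was 2.05 for NOF, 1.32 for G-element, -1.04 for Rt1a and -1.49 for G5A. With 1 column per assay and line these differences were not tested. Rt1a with nos lay 0.0081 above the median element, which is next to it. With a pseudocount of 0.1 RPM NOF lay below the median element in both lines, at -0.14 with tj, and with 5 RPM the difference of G-element was 0.58, under 2-fold. NOF had 0.622 RPM of steady-state RNA with tj and G-element 0.984 RPM with nos, so few reads lie behind both. G-element passed the level filter through the tj line alone, which favours its difference toward tj. For Rt1a the steady-state RNA was 5.86 RPM with tj and 10.8 RPM with nos at nascent levels of 51.9 and 51.6 RPM.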

How the results depend on the processing

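Pearson r between the lines stayed between 0.91 and 0.96 under the pseudocounts, filters and strand sum tried. With a mean of at least 10 RPM in both assays, 46 elements remained. Then the median ratio was -1.38 with tj and -1.52 with nos, 12 elements were high and 11 low with tj, 11 and 11 with nos, 8 high and 10 low in both, and relative to the median element the LINE-like median with nos was 0.56 and the DNA medians were 2.70 and 2.65, the last against -1.16 in the main setting, because this filter left 2 DNA elements, hopper and 1360. The DNA median with nos was -0.70 with a pseudocount of 5 RPM, -0.69 without a level filter and -0.51 with at least 1 RPM in each column, where the copia group median with tj was 0.015. The pseudocount of 5 RPM used the same 17 DNA elements as the main setting. Without a level filter the class had 21 elements, and with at least 1 RPM in each column 14. What else moved these medians was not tested. Of the values for single elements and smaller lists, 38 moved by more than 0.44 with 5 RPM and 13 with 0.1 RPM, among them P-element and Tom1.

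Without centring, 8 elements were at least 2-fold above and 80 below equal RPM with tj, 7 and 82 with nos and 7 and 74 in both. The class medians were then -1.73 and -1.96 (LTR), -1.87 and -2.09 (LINE-like) and -2.23 and -3.33 (DNA), and with nos the errantivirus median was -1.03, the telomeric median -0.95 and the median of a list of soma-active families -1.01, below equal RPM by the construction of the scale.

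With both strands summed the median ratio was -2.54 with tj. Listed next are values of named elements and lists that were at least 2-fold in size in the main setting and changed side. Relative to the median element, R2-element was then at 0.60 (tj) and 0.17 (nos), TART-C at 2.18 and 2.15 and HeT-A at -0.30 and -0.41. Rt1a was at 4.91 with tj and 0.16 for tj minus nos, rover at -0.27 with tj and TART-A at -0.38 with nos. The R1 and R2 list was at 0.13 in both lines and the telomeric list at -0.38 with nos. Smaller values that also changed side are left out. Of the 10 highest elements 7, and of the 10 lowest 8, were shared with the sense ranking. No paired analysis was possible because each group has 1 column. Depth limits elements under 5 RPM of steady-state RNA in both lines, which were 32 of 107, and 9 of the 21 low in both.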
